A study of Mus musculus with 48 samples.

Results

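The genes described here are 7 enzymes of cholesterol synthesis, namely Hmgcs1, Idi1, Fdps, Fdft1, Sqle, Cyp51 and Dhcr7, chosen by name from the 48526 genes of the count table through their Ensembl identifiers. No receptor or transport gene is among them, so cholesterol uptake is described only through a separate list of 9 genes. The libraries came from the cerebral cortex of 12 male C57BL/6JRj wild-type mice without treatment, with 4 mice aged 3 weeks (3w), 4 aged 5 months (5m) and 4 aged 18 to 19 months (18m). For the middle age the 5 months stated in the protocol and the methods were taken, although the labels of single samples state 6 months. Of every mouse, total homogenate (TH) and synaptosomes (SYN, labelled SG) were both sequenced as input and as the pellet under a sucrose cushion (SC). The study collected this pellet for its RNA bound to ribosomes, and it also held nuclear RNA, as given below. Synaptosomes are pinched-off nerve endings prepared by density centrifugation, and the preparation also carries fragments of glia. In these bulk samples fewer cells of a type and less RNA per cell cannot be told apart.

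Cholesterol in the brain is made within the tissue, because lipoproteins of the blood do not cross the blood-brain barrier. Synthesis starts from acetyl-CoA, runs through mevalonate and isoprenoid units to squalene, and then through lanosterol to cholesterol. The transcription factor SREBP2 raises the transcription of most of these enzymes when sterols in the membrane of the endoplasmic reticulum fall. Demand is greatest while oligodendrocytes wrap axons in myelin in young animals, whereas in the adult brain astrocytes are regarded as a main site of synthesis.

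The libraries held 1780267 to 18590040 gene counts, and input_SYN was the shallowest fraction (1780267 to 7879536). Levels are given as CPM, a count scaled to the size of its library, after TMM scaling across the 48 libraries. The genes were well covered with the exception of Fdps. Hmgcs1 had 590 to 4728 reads per library, Dhcr7 had 71 to 810, and Fdps had 1 to 68 and 913 in total. Reads were counted without regard to strand. In GENCODE for GRCm38, 85.9% of the coding bases of Fdps (chr3:89093588-89101959, minus strand) also belong to the protein-coding gene Gm43738. That gene held 2 counts over all libraries, so hardly any read over the shared bases was counted for it. Of the stretches of read length in Fdps, 21.3% occur in other genes, among them 2 processed pseudogenes. The level of Fdps is therefore uncertain. It is too low if reads over shared bases were left uncounted, which the sources used here do not state. All values of Fdps below carry this limit. For Idi1, 21.8% of such stretches occur elsewhere, including processed pseudogenes. Fdft1 overlaps Ctsb on the other strand over 18.3% of its exon bases, Hmgcs1 an antisense gene over 12.1% and Cyp51 Akap9 over 3.76%, and reads of such partners cannot be told apart without strand. Sqle and Dhcr7 overlap no other gene.

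Promoter sequences were matched in RefSeq windows of 300 bases (GRCm38.p6, 250 before and 50 after a start) for 4 of the 7 genes, Hmgcs1, Idi1, Cyp51 and Dhcr7. The windows of Hmgcs1, Cyp51 and Idi1 are shown because these genes were lower at 5m than at 3w in 4, 4 and 2 of the 4 fractions, respectively. Capitals mark CCAAT (bound by NF-Y, which acts together with SREBP) and TCACNCCA, the core of the sterol regulatory element bound by SREBP, each on either strand.
Hmgcs1 promoter, chr13:119690101-119690400, plus strand: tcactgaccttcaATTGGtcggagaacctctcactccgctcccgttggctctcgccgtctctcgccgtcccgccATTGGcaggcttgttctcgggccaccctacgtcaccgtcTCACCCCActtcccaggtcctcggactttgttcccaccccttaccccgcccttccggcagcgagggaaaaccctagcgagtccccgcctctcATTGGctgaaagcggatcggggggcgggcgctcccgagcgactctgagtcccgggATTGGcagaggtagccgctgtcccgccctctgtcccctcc
Cyp51 promoter, chr5:4104648-4104947, minus strand: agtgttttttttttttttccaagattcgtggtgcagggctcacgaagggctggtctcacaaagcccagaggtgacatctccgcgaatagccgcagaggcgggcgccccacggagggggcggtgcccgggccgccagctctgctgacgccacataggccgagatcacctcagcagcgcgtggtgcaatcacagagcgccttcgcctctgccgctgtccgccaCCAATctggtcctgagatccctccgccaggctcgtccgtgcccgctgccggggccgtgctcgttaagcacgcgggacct
Idi1 promoter, chr13:8885356-8885655, plus strand: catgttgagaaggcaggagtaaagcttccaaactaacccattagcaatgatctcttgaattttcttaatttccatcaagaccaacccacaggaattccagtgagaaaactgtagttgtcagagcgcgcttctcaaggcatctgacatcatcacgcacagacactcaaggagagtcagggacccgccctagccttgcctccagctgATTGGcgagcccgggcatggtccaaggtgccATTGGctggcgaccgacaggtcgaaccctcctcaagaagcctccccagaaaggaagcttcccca
The Hmgcs1 window holds TCACNCCA once, with its first base at -137 from the start, and CCAAT 4 times. Cyp51 holds CCAAT at -29, and Idi1 holds it at -45 and -14. Dhcr7 has 3 annotated starts, and the window at chr7:143829964-143830263 holds CCAAT at -85 and -49 while the other 2 hold none. Of all 32851 windows, 37.4% held CCAAT, 4.36% held TCACNCCA and 1.67% held both. GGGCGG, the core of the GC box, was found in 5 of the 6 windows of these genes and in 35.7% of all windows. These matches describe letters only.

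Per kilobase of exon, Hmgcs1, the cytosolic synthase that makes HMG-CoA, had the highest level of the 7 genes in all 12 groups. In input_TH at 5m it stood at 30.3 ± 1.62 CPM per kb (SD, n = 4). Next came Fdft1, squalene synthase, at 9.99 ± 0.333 CPM per kb and Cyp51, lanosterol demethylase, at 9.04 ± 0.424 CPM per kb, without overlap between their mice. Idi1, isopentenyl diphosphate isomerase, and Sqle, squalene epoxidase, followed at 6.67 ± 0.552 and 6.35 ± 0.278 CPM per kb, and these neighbours overlapped. Dhcr7, which reduces 7-dehydrocholesterol to cholesterol in the last step of its branch, stood at 3.51 ± 0.13 CPM per kb, and Fdps, farnesyl diphosphate synthase, at 0.6 ± 0.128 CPM per kb. Dhcr7 and Fdps held the lowest places in every group, Fdps under the limit of its shared bases. Fdft1 and Cyp51 also share exon bases with other genes (18.3% and 3.76%), and the part of this in their order was not tested. In SC_SYN at 5m the order changed in the middle, with Cyp51 at 35.0 ± 2.68 CPM per kb ahead of Fdft1 at 26.8 ± 3.01 CPM per kb.

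**Figure D1:**
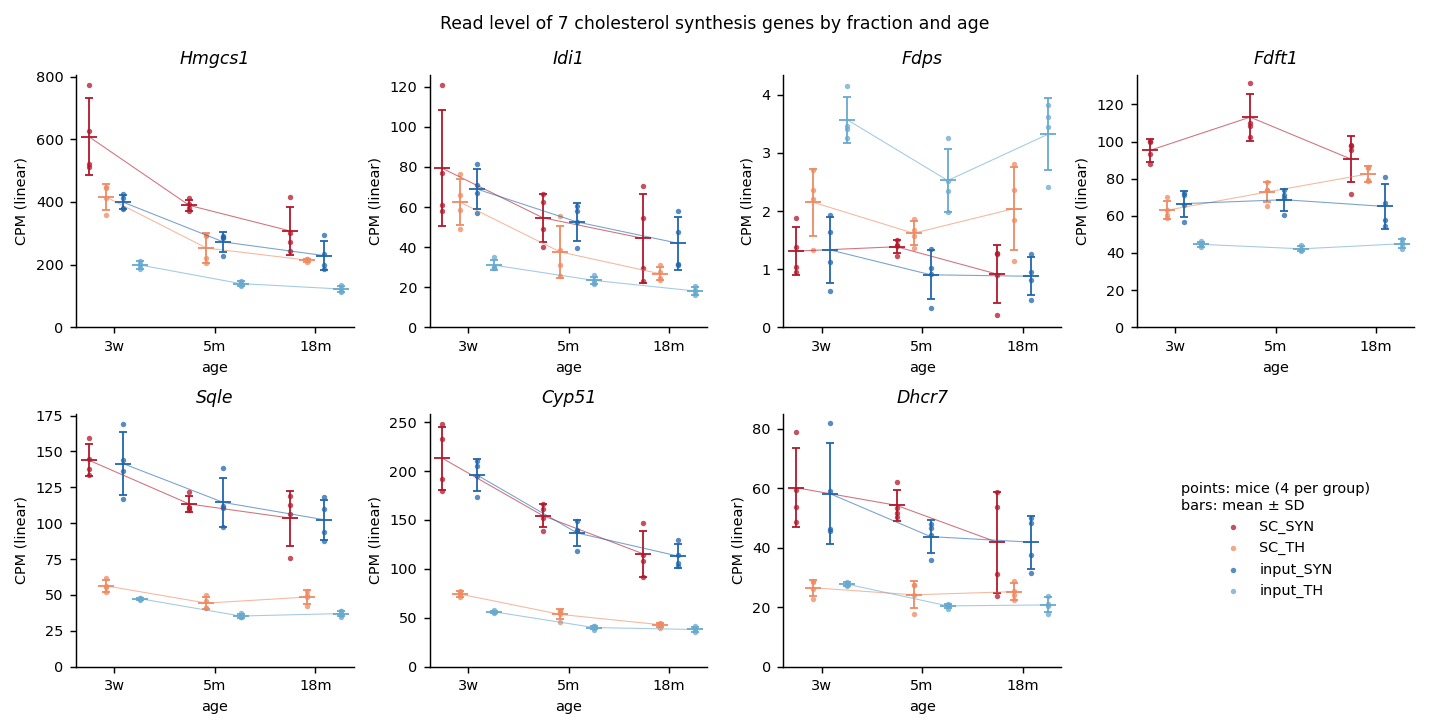
CPM of each of the 7 genes (vertical axis, linear, from 0) at 3w, 5m and 18m in the 4 fractions, with a point per mouse and bars for the mean ± SD of 4 mice. Hmgcs1, Idi1, Cyp51 and Sqle have their highest means at 3w in each fraction, Fdft1 does not, and Fdps lies below 5 CPM everywhere.

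The first comparison was that of young and adult mice within a fraction. From 3w to 5m, members of the pathway fell in all 4 fractions and none rose. In input_TH 5 of 7 were lower (Hmgcs1, Idi1, Sqle, Cyp51 and Dhcr7) against 7.05% of all genes tested. In SC_TH 4 of 7 were lower (the same without Dhcr7) against 8.46%. In SC_SYN 2 of the 6 tested were lower, Hmgcs1 and Cyp51, against 4.02%, and in input_SYN Hmgcs1 and Cyp51 were again the 2 lower genes of 6 tested against 1.94%. Fdps did not pass the filter on low counts in either SYN fraction. The members tested had a median log2 fold change of -0.44 in input_SYN and of -0.45 in each other fraction. In SC_TH this was the value of Fdps itself, and without Fdps the median was -0.40 in SC_TH and -0.44 in input_TH. The median over all genes lay between -0.01 and 0.01 in these fractions.

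Hmgcs1 stands at the entry of the pathway. In input_TH the 3w mice gave 212, 186, 194 and 202 CPM and the 5m mice 135, 145, 146 and 131 CPM. All 5m mice were below all 3w mice, and the log2 fold change was -0.52 ± 0.06 (SE, adjusted p = 3.77e-05, edgeR's quasi-likelihood test). In SC_SYN the values were 522, 774, 627 and 510 CPM at 3w against 393, 380, 371 and 412 CPM at 5m, again without overlap, and the log2 fold change was -0.68 ± 0.16 (adjusted p = 0.0217 with edgeR). In SC_TH the log2 fold change was -0.72 ± 0.10 (adjusted p = 0.000294), and in input_SYN -0.59 ± 0.14 (adjusted p = 0.0269), both by edgeR. The 5m mean was between 60.8% (SC_TH) and 70.1% (input_TH) of the 3w mean.

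The next steps form and condense isoprenoid units. Idi1 in SC_TH stood at 66.1, 76.4, 49.1 and 58.6 CPM at 3w and at 30.9, 55.6, 38.5 and 25.6 CPM at 5m. The groups overlapped through mouse 192 (55.6 CPM), and the log2 fold change was -0.75 ± 0.18 (adjusted p = 0.0104 with edgeR). In input_TH Idi1 fell by 0.42 on the log2 scale. The estimates in SC_SYN (-0.57 ± 0.31) and input_SYN (-0.42 ± 0.21) did not pass the test. For Fdps the estimates were -0.45 ± 0.31 in SC_TH and -0.51 ± 0.18 in input_TH, neither past the threshold, at 1.34 to 4.15 CPM at 3w.

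Squalene is made by Fdft1 and oxidised by Sqle, and these neighbouring steps differed. Fdft1 shares 18.3% of its exon bases with Ctsb, which held 252220 counts over all libraries against 28643 for Fdft1. The part of this overlap in the difference was not tested. Fdft1 in input_TH was at 44.4, 43.3, 44.7 and 46.3 CPM at 3w and at 41.5, 44.3, 41.1 and 42.1 CPM at 5m. Its log2 fold change there was -0.09 ± 0.05, with a positive estimate in SC_SYN (0.21 ± 0.12), where all 5m mice lay above all 3w mice, and in SC_TH (0.22 ± 0.08), and none of these passed the test. Sqle in input_TH was at 47.9, 46.6, 48.0 and 46.8 CPM at 3w against 34.4, 34.6, 37.5 and 34.4 CPM at 5m. These groups were far apart, and the log2 fold change was -0.43 ± 0.05 (adjusted p = 5.01e-05 with edgeR). Sqle also fell in SC_TH (-0.33 ± 0.10), while in SC_SYN (-0.39 ± 0.12, adjusted p = 0.0678 with edgeR) and input_SYN (-0.35 ± 0.13) it missed the threshold. In SC_SYN it passed under 5 of 7 other settings, among them DESeq2 (-0.39) and total counts as library size (-0.44), which made 3 members lower there.

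Cyp51 and Dhcr7 act on the sterol ring. Cyp51 in input_TH was at 57.5, 56.2, 54.8 and 55.7 CPM at 3w and at 39.3, 41.6, 41.2 and 37.5 CPM at 5m. In SC_SYN it was at 192, 248, 233 and 180 CPM at 3w and at 166, 152, 139 and 161 CPM at 5m. The age groups did not overlap in any of the 4 fractions, and the log2 fold changes lay between -0.47 ± 0.08 in SC_TH and -0.56 ± 0.11 in input_SYN. Dhcr7 fell in input_TH from 28.6, 27.4, 27.2 and 27.7 CPM to 20.8, 19.4, 20.3 and 21.1 CPM (log2 fold change -0.45 ± 0.08, adjusted p = 0.00103 with edgeR). In the other fractions its groups overlapped and its estimates were -0.13 ± 0.13 in SC_TH, -0.20 ± 0.23 in SC_SYN and -0.47 ± 0.18 in input_SYN.

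**Figure D2:**
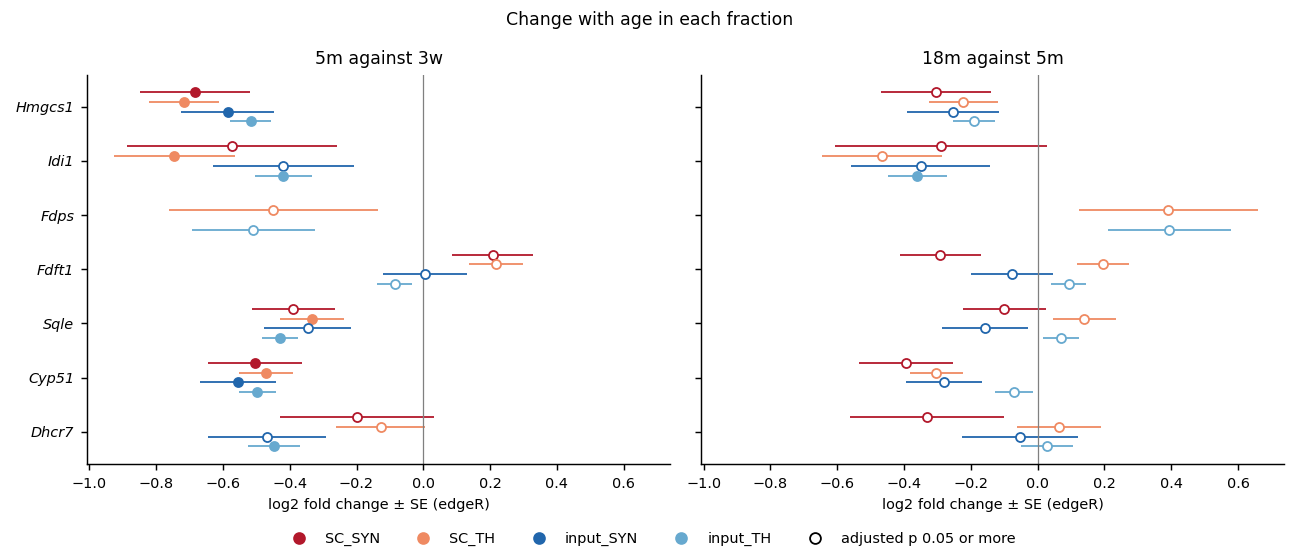
Log2 fold change ± SE (horizontal axis) of each gene in the 4 fractions for 5m against 3w (left) and 18m against 5m (right), with filled points for an adjusted p under 0.05. On the left the filled points all lie below 0, and Fdft1 has none. On the right the only filled point is Idi1 in input_TH.

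Several of these calls did not hold when single mice were left out, although the estimates kept their direction. In SC_SYN the call of Hmgcs1 was lost without mouse 188, 189, 192 or 193 and that of Cyp51 without mouse 188, 189, 191, 192, 193 or 194, with log2 fold changes of -0.75 to -0.56 and of -0.57 to -0.43 over all 8 refits. In input_SYN the call of Hmgcs1 was lost without mouse 188, 189, 190, 191, 193 or 194 (-0.63 to -0.49) and that of Cyp51 without mouse 194 (-0.60 to -0.48). In SC_TH the call of Sqle was lost without mouse 188, 190 or 194 (-0.40 to -0.30). Calls were gained for Fdft1 in SC_TH without mouse 193, where it was higher at 5m (0.27), and for Fdps in input_TH without mouse 191 (-0.65). The 5 calls in input_TH held in each of the refits that left out a mouse.

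From 5m to 18m 1 member was called in the 4 fractions. Idi1 in input_TH fell from 23.4, 26.1, 21.8 and 22.3 CPM to 18.4, 16.2, 20.7 and 17.2 CPM (log2 fold change -0.36 ± 0.09, adjusted p = 0.0144 with edgeR), against 7.35% of all genes lower in that fraction. The call was lost without mouse 192 or 196, with log2 fold changes of -0.43 to -0.30 over the refits. Calls were gained for Hmgcs1 in input_TH without mouse 191 (-0.21) or 197 (-0.24), for Fdps in input_TH without mouse 195, where it was higher (0.53), and for Cyp51 in SC_TH without mouse 194 (-0.36). No member was called lower by edgeR in SC_SYN (0.00702% of all genes), SC_TH (1.79%) or input_SYN (0.108%), and none was called higher in any fraction. At an unadjusted p under 0.05 there were 2 members in SC_SYN, 4 in SC_TH and 1 in input_SYN, and DESeq2 called 0, 1 (Cyp51) and 0. Of all genes, 17.4%, 17.5% and 9.36% had an unadjusted p under 0.05 in these fractions, and DESeq2 called 322, 533 and 64. In input_TH 3 members had an unadjusted p under 0.05 (31.3% of all genes), and DESeq2 called Hmgcs1 and Idi1 (2674 of all genes). Estimates for Hmgcs1 were -0.30 ± 0.16 (SC_SYN), -0.22 ± 0.10 (SC_TH), -0.25 ± 0.14 (input_SYN) and -0.19 ± 0.06 (input_TH). For Cyp51 they were -0.39 ± 0.14, -0.30 ± 0.08, -0.28 ± 0.11 and -0.07 ± 0.06. At 18m the mean of Hmgcs1 in SC_SYN was 308 ± 76.3 CPM, or 50.6% of the 3w mean, and Fdft1 in input_TH was at 100.7% of its 3w mean.

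The other 14 enzymes of cholesterol synthesis on the lists were read beside the members. In input_TH 9 of 14 fell from 3w to 5m and none rose, with a median log2 fold change of -0.27. Among them were Mvd, mevalonate diphosphate decarboxylase (-0.72), Mvk, mevalonate kinase (-0.42), Lss, lanosterol synthase (-0.50), Hsd17b7 (-0.40) and Msmo1, sterol methyl oxidase (-0.24). In SC_TH 3 of 14 fell, Acat2 (-0.46), Hsd17b7 (-0.40) and Lss (-0.37). In SC_SYN 2 of 14 fell, Acat2 (-0.58) and Hsd17b7 (-0.54), and in input_SYN none of 14 passed the test with edgeR. The estimates of Msmo1 were -0.06 in SC_SYN, 0.07 in SC_TH and -0.16 in input_SYN, none past the threshold. From 5m to 18m 2 of the 14 fell in input_TH, Sc5d (-0.29) and Msmo1 (-0.21), and none was called in the other fractions.

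**Figure D3:**
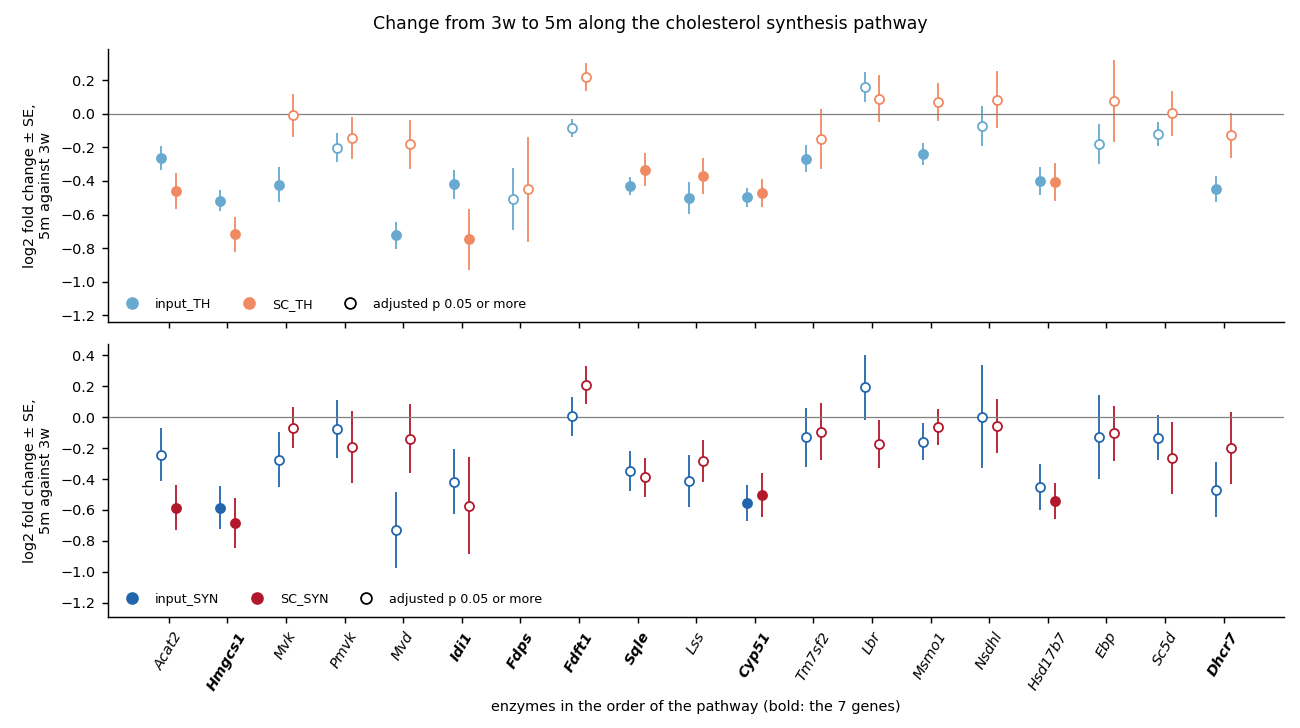
Log2 fold change ± SE from 3w to 5m (vertical axis) of the 7 genes and other enzymes in the order of the pathway, in TH (top) and SYN (bottom), with filled points for an adjusted p under 0.05 and the 7 genes in bold. In input_TH filled points below 0 run from Acat2 to Dhcr7, while Fdft1 lies near or above 0 in every fraction.

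Regulators of the pathway gave calls in both directions. Of 9 regulator genes, 3 rose and none fell in SC_TH from 3w to 5m, namely Srebf2, which encodes SREBP2 (0.42), Srebf1 (0.50) and Nr1h2, the liver X receptor beta (0.54). In input_TH 1 rose, Nr1h3, the liver X receptor alpha (0.85), and 2 fell, Mylip (-0.40) and Scap (-0.17), and in both SYN fractions none passed edgeR's test. In input_TH Srebf2 was at -0.06 and Insig1, which retains SREBP in the endoplasmic reticulum, at -0.19, neither past the threshold. From 5m to 18m 6 of the 9 rose in input_TH, where 8.18% of all genes rose, with Srebf1 (0.66) and Srebf2 (0.25) among them. Of the 9 uptake and transport genes, Lrp1, a lipoprotein receptor, rose in SC_SYN (0.62), SC_TH (0.40) and input_SYN (0.45) from 3w to 5m. This 1 gene does not describe the list as a whole, whose other genes are not reported here for this step. Of the 9 export and storage genes, 8 of which were tested, 1 rose in SC_SYN, 3 rose and 1 fell in SC_TH, and 1 rose and 2 fell in input_TH. Abcg1, which exports cholesterol, rose in SC_SYN (0.48), SC_TH (0.73) and input_TH (0.34). Apoe, the main apolipoprotein of the brain, did not pass the test in any fraction from 3w to 5m. It rose in input_TH from 5m to 18m (0.31). Cyp46a1, which turns cholesterol into its exported hydroxylated form in neurons, fell in input_TH from 3w to 5m (-0.25). None of the 6 isoprenoid genes was called from 3w to 5m. Of the 8 fatty acid genes, 1 fell in SC_SYN, 1 in input_SYN and 4 in input_TH, and in SC_TH 1 rose and 1 fell. Elovl6, an elongase, fell in SC_SYN (-0.79), SC_TH (-0.55), input_SYN (-0.69) and input_TH (-0.30).

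Markers of oligodendrocytes moved with the enzymes between 3w and 5m. Of 10 myelin genes, 9 fell in SC_SYN, SC_TH and input_TH, and all 9 that were tested fell in input_SYN, with median log2 fold changes of -1.41, -0.9997, -1.35 and -1.47. Their summed level in input_TH went from 5361 to 6657 CPM at 3w to 2132 to 2411 CPM at 5m, and in SC_SYN from 8927 to 10862 CPM to 3568 to 3853 CPM. Of 6 genes of newly formed oligodendrocytes, 5 fell in SC_SYN, input_SYN and input_TH and 6 in SC_TH. Astrocyte markers moved less, with a median log2 fold change of 0.02 in SC_SYN and -0.12 in input_TH, where 3 of 10 fell. Microglial markers rose in SC_SYN (7 of 10), SC_TH (5) and input_SYN (5), where 4.02%, 9.48% and 1.28% of all genes rose. In input_TH 1 of 10 fell. Of 4 markers of oligodendrocyte precursors, 3 fell in input_TH and 1 in each other fraction, and of 5 erythrocyte genes 5 fell in input_TH and 4 in SC_TH. Endothelial genes fell in SC_TH (3 of 9) and rose in input_TH (1 of 9), and 2, 3, 2 and 0 of 6 mural and meningeal genes fell in SC_SYN, SC_TH, input_SYN and input_TH. No listed marker was at 0 in all libraries of a group. Their part in the fall of the enzymes was not tested.

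The second comparison was that of SYN with TH at each age. In input, 6 of the 7 genes were higher in SYN at every age, against 31.7% of all genes at 3w, 32.6% at 5m and 32.9% at 18m. Fdps was lower at each age, against 39.3%, 39.4% and 40.1% of all genes lower at 3w, 18m and 5m, respectively. It did not pass the low count filter among SYN libraries alone and entered this comparison through TH, where it is higher, so its value is a description and supports no difference. Among ribosome-associated RNA, SC_SYN exceeded SC_TH for 5 of 7 genes at 3w (31.1% of all genes), 5 of 7 at 5m (32.1%) and 5 of 7 at 18m (29.9%). Cyp51, Sqle, Dhcr7 and Hmgcs1 were higher at all 3 ages. At 18m Dhcr7 stood at 23.7, 53.7, 58.7 and 31.2 CPM in SC_SYN, which overlapped SC_TH at 22.3 to 28.9 CPM. Its values of 23.7 and 31.2 CPM were those of mice 195 and 198, whose SC_SYN libraries were the shallowest at that age. The part of this depth was not tested. Fdft1 passed at 3w and 5m and Idi1 at 18m. At 18m Fdps was lower in SC_SYN (32.2% of all genes), which is a description for the same reason.

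Cyp51 had the largest ratio. At 5m its input_SYN values were 149, 140, 139 and 119 CPM and its input_TH values 39.3, 41.6, 41.2 and 37.5 CPM. The log2 fold change was 1.78 ± 0.09 in input and 1.56 ± 0.11 in SC, and within each of the 4 mice SC_SYN exceeded SC_TH (mean of the log2 ratios 1.53 ± 0.23, SD). Sqle followed with 112, 97.1, 138 and 111 CPM in input_SYN against 34.4, 34.6, 37.5 and 34.4 CPM in input_TH, which is a log2 fold change of 1.71 ± 0.11, and 1.38 ± 0.11 in SC. Dhcr7 was higher by 1.11 ± 0.15 in input and 1.18 ± 0.20 in SC at 5m, and Hmgcs1 by 0.97 ± 0.11 in input and 0.65 ± 0.14 in SC, all on the log2 scale.

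Idi1 and Fdft1 gave smaller or more variable ratios. Idi1 in SC_SYN at 18m stood at 54.7, 29.4, 23.0 and 70.3 CPM, a wide spread that overlapped SC_TH at 30.8, 27.5, 23.5 and 24.8 CPM. The SC_SYN libraries of mice 195 and 198 (54.7 and 70.3 CPM) held 6268207 and 5341263 counts, against 18590040 and 15306804 for mice 196 and 197. The part of this depth in the spread was not tested. The log2 fold change of Idi1 at 18m was 0.74 ± 0.28 (adjusted p = 0.0258 with edgeR). Its call was lost without mouse 195 or 198, with values of 0.39 to 0.93 over the refits. At 5m Idi1 was at 0.58 ± 0.28 and missed the threshold, and with the mouse as a block it passed at 0.59 (adjusted p = 0.0236 with edgeR). Fdft1 in SC_SYN exceeded SC_TH by 0.65 ± 0.10 at 3w and 0.66 ± 0.10 at 5m, while at 18m the estimate was 0.16 ± 0.10 and the groups overlapped. Fdps was at 1.01, 0.920, 1.35 and 0.334 CPM in input_SYN and at 3.26, 1.98, 2.34 and 2.52 CPM in input_TH at 5m, with 1 to 3 reads per input_SYN library. In SC at 18m its log2 fold change was -0.96 ± 0.30, and that call was lost without mouse 198, with values of -1.16 to -0.58.

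**Figure D4:**
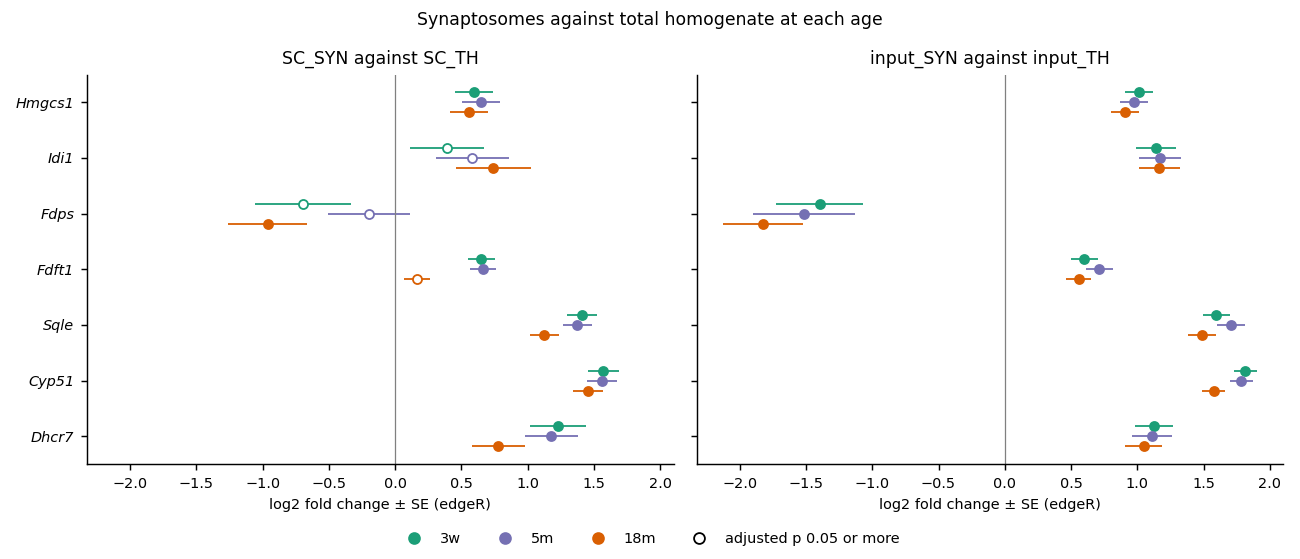
Log2 fold change ± SE of SYN against TH (horizontal axis) for each gene at 3 ages, in ribosome-associated RNA (left) and input (right), with filled points for an adjusted p under 0.05. Cyp51 and Sqle lie farthest to the right in both panels, and Fdps lies left of 0.

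These differences are relative to the other RNA in each library. With total counts in place of TMM as the library size, the median of all genes shifted by -0.55 at 3w, -0.59 at 5m and -0.53 at 18m in SC and by -0.58, -0.65 and -0.58 in input. Such a change of scaling shifts all genes of a comparison by nearly the same amount. Values relative to that median therefore hardly move by construction, which is no test of the scaling. Cyp51 in SC at 5m stood 1.65 above the median of all genes with TMM and 1.64 above it with total counts. With TMM in SC at 5m, Sqle stood 1.47 above the median of all genes, Dhcr7 1.27, Fdft1 0.75, Hmgcs1 0.74 and Idi1 0.67 above it, and Fdps 0.11 below it. Not taken relative to the median, total counts gave 3 members higher and 1 lower in SC at 3w and 5m and 2 higher and 2 lower at 18m, and Fdft1 at 18m turned from 0.16 to -0.36. In input they left 5 members higher at each age, since Fdft1 went from 0.60 to 0.025 at 3w and from 0.71 to 0.058 at 5m and stood at -0.020 at 18m. Cyp51 and Sqle were higher under both scalings at all 3 ages.

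The same direction was seen along the pathway and in glial markers. Of the other 14 enzymes, 12 were higher in SC_SYN than in SC_TH at 3w and 5m and 10 at 18m. At 5m Ebp, a sterol isomerase, was higher by 1.42 on the log2 scale. Of 9 regulators, 7, 8 and 7 were higher at 3w, 5m and 18m, with Srebf1 at 1.42 at 5m. Of 9 uptake genes, 7 were higher at each age, with Lrp1 at 2.31 at 5m. All 10 astrocyte markers were higher in SC_SYN at each age, and their sum at 5m was 17808 to 20182 CPM in SC_SYN against 6226 to 6888 CPM in SC_TH. Microglial markers were higher for 9, 10 and 10 of 10 genes and myelin markers for 9, 8 and 6 of 10. Of 10 neuronal markers, 4 were higher and 6 lower in SC_SYN at 5m, although their sum was 22045 to 22651 CPM against 10905 to 12249 CPM. Nuclear RNAs were lower for 6 of 6 genes at 5m. Their summed level had means of 12293, 9284 and 5736 CPM in SC_TH at 3w, 5m and 18m. In SC_SYN the means were 1203, 1507 and 2757 CPM, and in input_TH 19060, 18795 and 17308 CPM. Nuclear RNA in the pellet thus differed between compartments and ages. The part of these cell types and of nuclear RNA in the values of the enzymes was not tested.

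Whether the change with age differed between SYN and TH was tested as an interaction. For 5m against 3w, 0 of 7 members were called in SC (0.0301% of all genes called in either direction) and 0 of 7 in input (0.0224%). For 18m against 5m, 0 of 7 were called in SC (0% of all genes, with 2855 of 16630 at an unadjusted p under 0.05 and 272 by DESeq2) and 0 of 7 in input (2.42%). No member had an unadjusted p under 0.05 with the exception of Fdft1 in SC from 5m to 18m, at -0.50 ± 0.14 (adjusted p = 0.125 with edgeR), which DESeq2 called. For Hmgcs1 the difference of the log2 fold changes from 3w to 5m was 0.05 ± 0.20 in SC and -0.04 ± 0.15 in input, and for Cyp51 it was -0.01 ± 0.16 and -0.03 ± 0.12. With the mouse as a block no member was called either, and the genes called changed from 5 to 10 in SC and from 4 to 8 in input for 5m against 3w, and from 432 to 661 in input for 18m against 5m.

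The third comparison set the pellet of the cushion against its input, which the study uses as translational efficiency (TE) within a compartment. In TH most members were higher in SC. At 3w 5 of 7 were higher (26.1% of all genes) and Fdps lower (26.6%), at 5m 6 of 7 were higher (29.9%) and Fdps lower (32.2%), and at 18m 6 of 7 were higher (31.3%) and Fdps lower (32.7%). With total counts, and likewise with at least 10 counts in every library, 5 were higher at 5m, since Dhcr7 lost its call (0.17 and 0.19). At 18m 4 were higher under each, since Cyp51 (0.14 and 0.092) and Dhcr7 (0.24 and 0.20) lost theirs. In SYN Hmgcs1 and Fdft1 were the 2 members higher in SC at 3w (9.04% of all genes) and at 5m (9.66%), and Fdft1 was the only member at 18m (5.88%).

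Hmgcs1 had the largest ratio in TH at 3w. Its SC_TH values were 448, 446, 358 and 412 CPM against 212, 186, 194 and 202 CPM in input_TH, which gave a log2 fold change of 1.08 ± 0.09. At 5m and 18m the ratio was 0.86 ± 0.09 and 0.83 ± 0.09. In SYN the ratio of Hmgcs1 was 0.58 ± 0.16 at 3w and 0.48 ± 0.16 at 5m, and at 18m it was 0.42 ± 0.16 and missed the threshold. The call at 3w was lost without mouse 188 or 189 (0.47 to 0.63 over the refits), and that at 5m on leaving out any of mice 191, 192, 193 and 194 (0.38 to 0.55), while at 18m a call was gained without mouse 197 (0.70).

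Fdft1, under the limit of its bases shared with Ctsb, was the member with higher SC than input in both compartments at every age. In SYN at 5m it stood at 109, 132, 110 and 102 CPM in SC against 71.2, 60.3, 69.5 and 73.8 CPM in input, without overlap, and the log2 fold change was 0.69 ± 0.12 (adjusted p = 0.000161 with edgeR). In SYN at 18m the value was 0.48 ± 0.12, and the call was lost without mouse 197 (0.40 to 0.54 over the refits). In TH the ratio was 0.51 ± 0.07 at 3w, 0.79 ± 0.07 at 5m and 0.89 ± 0.06 at 18m. Idi1 in TH was at 1.02 ± 0.15, 0.67 ± 0.15 and 0.56 ± 0.16 at these ages, and in SYN at 0.18 ± 0.29, 0.03 ± 0.29 and 0.07 ± 0.30.

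The remaining members gave small ratios. Sqle in TH was at 0.26 ± 0.08, 0.34 ± 0.08 and 0.41 ± 0.08, and the call at 3w was lost without mouse 190 (0.21 to 0.30 over the refits). Cyp51 in TH was at 0.42 ± 0.07 at 3w and 5m and at 0.19 ± 0.07 at 18m, where the call was lost without mouse 196 or 198 (0.17 to 0.22). Dhcr7 in TH was at -0.03 ± 0.11, 0.26 ± 0.11 and 0.30 ± 0.11. Its call at 5m was lost without mouse 191, 193 or 194 (0.21 to 0.36) and that at 18m without mouse 196 or 197 (0.23 to 0.36). Fdps in TH was at -0.68 ± 0.25, -0.65 ± 0.24 and -0.65 ± 0.21, and its calls were lost without mouse 187, 188 or 190 at 3w (-0.88 to -0.57) and without mouse 191, 193 or 194 at 5m (-0.78 to -0.52). In SYN the estimates of Sqle, Cyp51 and Dhcr7 lay between -0.04 and 0.28 and none passed the test.

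**Figure D5:**
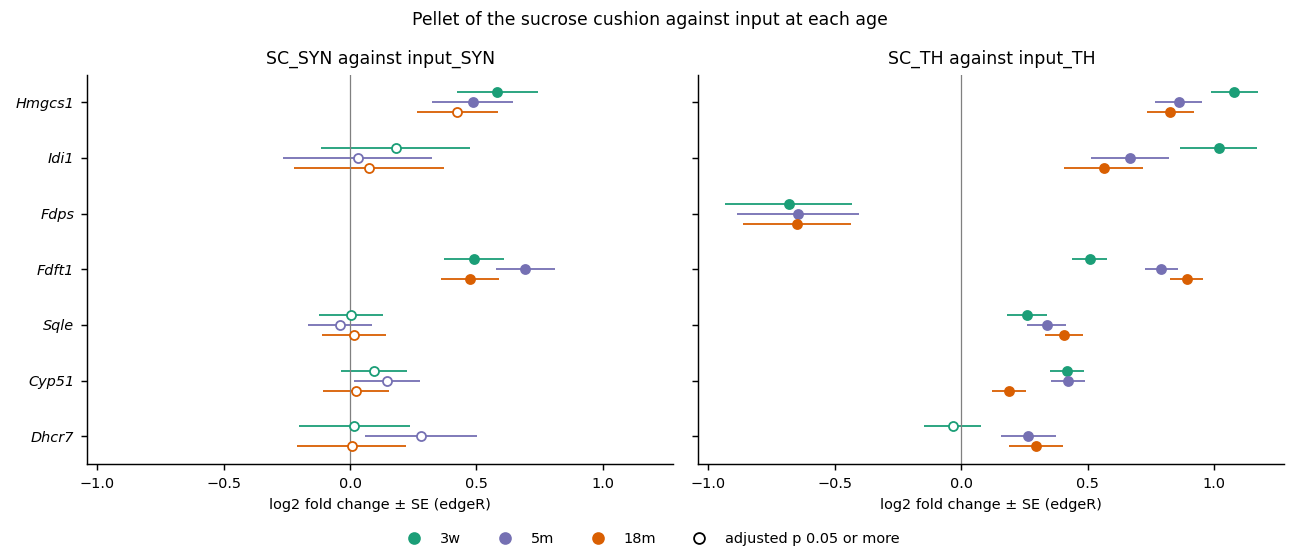
Log2 fold change ± SE of the pellet of the cushion against input (horizontal axis) for each gene at 3 ages, in SYN (left) and TH (right), with filled points for an adjusted p under 0.05. Fdft1 is filled at all ages in both panels, and Hmgcs1 lies right of 0 throughout.

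Neighbouring enzymes were not uniform in TE. Of the other 14 enzymes, SC_TH exceeded input_TH for 7 at 5m, with Acat2 (0.68) and Mvk (0.57) among the mevalonate genes, and was lower for 2, Tm7sf2 (-0.54) and Msmo1 (-0.27). In SYN at 5m 4 of 14 were higher, namely Mvd (0.98), Nsdhl (0.97), Lss (0.69) and Mvk (0.50), and none was lower. In TH at 5m all 10 neuronal and 9 of 10 astrocyte markers were higher in SC, and all 6 nuclear RNAs were lower.

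Whether TE changed with age was tested as an interaction of SC and input. In SYN 0 of 6 tested members were called for 5m against 3w (0% of all genes, with 473 at an unadjusted p under 0.05 and 0 by DESeq2) and 0 of 6 for 18m against 5m (0%, with 393 at an unadjusted p under 0.05 and 0 by DESeq2). In TH 0 of 7 were called for 5m against 3w (2.33% of all genes) and 0 of 7 for 18m against 5m (1.78%). In SYN no member had an unadjusted p under 0.05. In TH 1 member in each had an unadjusted p under 0.05, Fdft1 from 3w to 5m at 0.28 ± 0.09 (adjusted p = 0.0858 with edgeR) and Cyp51 from 5m to 18m at -0.23 ± 0.10. DESeq2 called Fdft1 and not Cyp51. Of all genes in TH, 21.9% from 3w to 5m and 17% from 5m to 18m had an unadjusted p under 0.05, and DESeq2 called 1175 and 752. Idi1 (-0.35 ± 0.22) and Dhcr7 (0.30 ± 0.16) had larger estimates from 3w to 5m with wider errors. The values of Hmgcs1 were -0.22 ± 0.13 and -0.03 ± 0.13. With the mouse as a block no member was called, and the genes called in TH for 5m against 3w changed from 429 to 664.

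Genes with a like profile were sought over the 12 group means of log2 CPM, each centred on its own mean. Among 9030 genes with a mean of at least 10 CPM, the 5 nearest to the mean profile of the members were Tbcel, a tubulin-binding protein (root mean square difference 0.145 on the log2 scale), Car14, a carbonic anhydrase (0.146), Bpgm, bisphosphoglycerate mutase (0.147), Tmem108 (0.153) and Ybx1, a nucleic acid binding protein (0.159). Mvk of the same pathway, singled out after its value was seen, ranked 6 (0.162). The nearest genes were picked as the smallest of all distances, so the members cannot be set against them. Fdps entered the mean profile of all members, and that used for each other member, at a mean of 1.83 CPM, below the limit for candidates. Compared with the mean profile of the other 6, Dhcr7 ranked 63 (0.216) and Idi1 567 (0.289) among 9031 genes, while Cyp51 ranked 4965 (0.529) and Fdps 8602 (1.13).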

How the data were processed

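Per the labels and the study's methods, directional libraries depleted of rRNA and carrying UMI adaptors were sequenced single-end, demultiplexed with bcl2fastq 2.20.0.422 and aligned with TopHat2 2.1 to GRCm38. The authors deposited raw counts per gene from featureCounts, taken without regard to strand. The removal of duplicates by UMI and the sequencing run of each library are not given in the sources used here. Of 48526 identifiers, 48144 matched GENCODE.

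All genes passing filterByExpr were tested in edgeR 4.0.16 under R 4.3.3 with TMM and the quasi-likelihood test (glmQLFit, glmQLFTest). P-values were adjusted by Benjamini-Hochberg and called at 0.05. Ages were compared in the 12 libraries of a fraction and fractions in 24 libraries. SE is the absolute log2 fold change divided by the square root of F, and log2 CPM had a prior count of 2. The fits were tested on simulated data with 200 genes planted at a log2 change of 1. Of these, SC_SYN from 3w to 5m gave back 161, input_TH 196 and the change of TE in SYN 100. Only genes with ample counts were planted, libraries were drawn independently of the mouse, and the planted change exceeded every member's change with age. These numbers therefore do not say how often changes of the members' size would be found. The variance between libraries of a group was 1.98 to 32.2 times that of counting (chi-square per degree of freedom) over 72 pairs.

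Same-numbered libraries come from the same mouse. Their deviations from group means correlated with medians of -0.00975 to 0.111 over the pairs of fractions. Alternatives were the mouse as a block, DESeq2 1.42.0, total counts as library size, other filters, loess correction (span 0.5) for GC content and length, other sets of libraries and each mouse left out.

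The members and the lists of 55 other pathway genes and 76 markers were chosen with earlier results of these data known. Beside the 7 members, Srebf2, Insig1, Msmo1, Apoe and Cyp46a1 are named in age comparisons and, per list and direction, at most 2 genes past the test with the largest change whose mean count reached 20 in the group with the higher level. Some genes that this rule would name are not reported here.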

Additional observations from a re-analysis of the deposited data

Results flagged for a closer look

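In 4 of the 84 groups of 4 mice (7 genes in 12 groups) 1 mouse lay apart from the other 3 by more than Dixon's 95% critical value for the gap over the range, where chance gives about 4.2. Hmgcs1 in input_SYN at 5m was at 226 CPM in mouse 194 against 284 to 291 CPM in the others (gap over range 0.9). Idi1 in input_TH at 3w was at 34.9 CPM in mouse 187 against 29.5 to 29.9 CPM (0.934). Fdft1 in SC_SYN at 18m was at 71.9 CPM in mouse 195 against 95.2 to 98.0 CPM (0.894). Sqle in input_TH at 5m was at 37.5 CPM in mouse 193 against 34.4 to 34.6 CPM (0.932). Their causes were not tested.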

How the results depend on the processing

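Of 2325 log2 fold changes of the members under an alternative, 2090 kept their direction and side of the threshold, 65 lost and 30 gained a call in the same direction, and 140 changed sign, 138 of them with no call in either fit. Of the 140, 95 came from leaving out a mouse (44 log2 fold changes) and 45 from other alternatives. With all 48 libraries in a single fit, 2 members were lower in SC_SYN from 5m to 18m, and in input_TH 3 were lower from 3w to 5m and 0 from 5m to 18m. From 5m to 18m, 1 was lower in SC_TH with DESeq2, without a filter, or with GC and length trends removed, and in input_TH 2 were lower with DESeq2, total counts or at least 10 counts in every library, and 0 with GC and length trends removed. Total counts in place of TMM gave 3, 3 and 2 members higher and 1, 1 and 2 lower in SC_SYN against SC_TH at 3w, 5m and 18m, with Idi1 at -0.16 at 3w and -0.0061 at 5m and Fdft1 at -0.36 at 18m, and -0.020 in input at 18m. In input_SYN against input_TH total counts left 5 members higher at each age. Total counts and at least 10 counts in every library each left 5 members higher at 5m and 4 at 18m in SC_TH against input_TH. The latter removed Fdps, so that 0 members were lower in SC_SYN against SC_TH at 18m and in input_SYN against input_TH and SC_TH against input_TH at every age. DESeq2 called 1 member lower in the SYN minus TH change in SC from 5m to 18m and 1 higher in the SC over input change in TH from 3w to 5m. Without a filter or with GC and length trends removed, 2 members were higher in SC_SYN than in input_SYN at 18m, and the latter turned Dhcr7 in SC_TH against input_TH at 3w to 0.081. With DESeq2, signs also changed in input_SYN from 3w to 5m for Fdft1 (-2.2e-05), the SYN minus TH change in SC from 3w to 5m for Cyp51 (0.013), the SYN minus TH change in input from 3w to 5m for Idi1 (-0.010), the SYN minus TH change in input from 5m to 18m for Idi1 (0.030), SC_SYN against input_SYN at 3w for Sqle (-0.0094) and SC_SYN against input_SYN at 18m for Dhcr7 (-0.010). With total counts, signs also changed in input_SYN from 3w to 5m for Fdft1 (-0.0023), input_TH from 5m to 18m for Dhcr7 (-0.023), the SYN minus TH change in SC from 3w to 5m for Fdft1 (-0.029), the SYN minus TH change in input from 3w to 5m for Idi1 (-0.049), the SYN minus TH change in input from 5m to 18m for Hmgcs1 (0.018), Idi1 (0.078) and Dhcr7 (0.011), the SC over input change in TH from 3w to 5m for Fdps (-0.011) and Cyp51 (-0.045) and the SC over input change in TH from 5m to 18m for Hmgcs1 (0.010) and Fdps (0.043). Without a filter, signs also changed in input_SYN from 3w to 5m for Fdft1 (-0.015), the SYN minus TH change in SC from 3w to 5m for Fdft1 (-0.0016), the SYN minus TH change in input from 5m to 18m for Idi1 (0.018), SC_SYN against input_SYN at 5m for Sqle (0.039) and the SC over input change in SYN from 5m to 18m for Idi1 (-5.8e-04). With GC and length trends removed, signs also changed in input_SYN from 3w to 5m for Fdft1 (-0.021), input_TH from 5m to 18m for Dhcr7 (-0.021), the SYN minus TH change in SC from 3w to 5m for Fdft1 (-0.030), the SYN minus TH change in SC from 5m to 18m for Idi1 (-0.11), the SYN minus TH change in input from 3w to 5m for Hmgcs1 (0.0017), SC_SYN against input_SYN at 3w for Sqle (-0.035), SC_SYN against input_SYN at 18m for Sqle (-0.0087), Cyp51 (-0.0085) and Dhcr7 (-0.038), the SC over input change in SYN from 5m to 18m for Idi1 (-0.043) and the SC over input change in TH from 5m to 18m for Fdps (0.0047). With at least 10 counts in every library, signs also changed in the SYN minus TH change in SC from 3w to 5m for Cyp51 (0.0028), the SYN minus TH change in input from 5m to 18m for Idi1 (0.011) and the SC over input change in TH from 3w to 5m for Cyp51 (-0.0012). With the mouse as a replicate block, signs also changed in the SYN minus TH change in input from 3w to 5m for Dhcr7 (0.026), the SYN minus TH change in input from 5m to 18m for Idi1 (0.0076), SC_SYN against input_SYN at 18m for Dhcr7 (-0.072) and the SC over input change in SYN from 5m to 18m for Idi1 (-0.0078). Apart from the construction of the filter, the causes were not tested.

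Leaving out each mouse in turn, the members lower from 3w to 5m numbered 0 to 2 in SC_SYN, 3 to 4 in SC_TH (0 to 1 higher), 0 to 2 in input_SYN and 5 to 6 in input_TH, and from 5m to 18m 0 to 1 in SC_TH and 0 to 2 in input_TH (0 to 1 higher). Between SC_SYN and SC_TH at 18m 4 to 5 were higher and 0 to 1 lower. Between SC and input, 1 to 2 were higher in SYN at 3w and 1 at 5m and 18m, and in TH 4 to 5, 5 to 6 and 4 to 6 were higher and 0 to 1, 0 to 1 and 1 lower at 3w, 5m and 18m. The sign of 44 log2 fold changes differed in some of these refits, and each is given with its range over the refits and the mice without which the sign changed. For SC_TH from 5m to 18m it was Dhcr7 (-0.046 to 0.13, without 192 and 197). For input_SYN from 3w to 5m it was Fdft1 (-0.053 to 0.049, without 189, 191, 193 and 194). For input_SYN from 5m to 18m it was Dhcr7 (-0.14 to 0.033, without 197). For input_TH from 5m to 18m it was Dhcr7 (-0.044 to 0.10, without 198). For the SYN minus TH change in SC from 3w to 5m these were Hmgcs1 (-0.046 to 0.16, without 187, 191 and 194), Idi1 (-0.0088 to 0.35, without 194), Fdft1 (-0.085 to 0.077, without 189, 190, 192 and 193), Sqle (-0.074 to 0.065, without 187 and 191), Cyp51 (-0.083 to 0.078, without 188, 189, 192 and 193) and Dhcr7 (-0.15 to 0.085, without 187, 190 and 191). For the SYN minus TH change in SC from 5m to 18m these were Hmgcs1 (-0.23 to 0.012, without 194 and 197) and Idi1 (-0.15 to 0.36, without 198). For the SYN minus TH change in input from 3w to 5m these were Hmgcs1 (-0.10 to 0.022, without 188 and 194), Idi1 (-0.13 to 0.13, without 187, 191 and 193), Fdps (-0.39 to 0.19, without 188, 190 and 194), Cyp51 (-0.087 to 0.0094, without 189 and 194) and Dhcr7 (-0.10 to 0.20, without 187 and 192). For the SYN minus TH change in input from 5m to 18m these were Hmgcs1 (-0.15 to 0.0071, without 196 and 198), Idi1 (-0.10 to 0.092, without 191, 192, 193, 196 and 198) and Dhcr7 (-0.19 to 0.034, without 197). For SC_SYN against input_SYN at 3w these were Idi1 (-0.088 to 0.29, without 188), Sqle (-0.041 to 0.027, without 188 and 189) and Dhcr7 (-0.079 to 0.087, without 189 and 190). For SC_SYN against input_SYN at 5m these were Idi1 (-0.16 to 0.20, without 192 and 194) and Sqle (-0.10 to 0.035, without 193). For SC_SYN against input_SYN at 18m these were Idi1 (-0.37 to 0.51, without 198), Sqle (-0.092 to 0.084, without 197), Cyp51 (-0.18 to 0.15, without 196 and 198) and Dhcr7 (-0.27 to 0.19, without 196 and 197). For the SC over input change in SYN from 3w to 5m these were Hmgcs1 (-0.20 to 0.0093, without 188), Idi1 (-0.34 to 0.11, without 188 and 191), Sqle (-0.089 to 0.031, without 193) and Cyp51 (-0.025 to 0.11, without 194). For the SC over input change in SYN from 5m to 18m these were Hmgcs1 (-0.31 to 0.21, without 194 and 197), Idi1 (-0.39 to 0.48, without 191, 193, 195 and 198), Sqle (-0.053 to 0.14, without 193 and 197) and Cyp51 (-0.31 to 0.0063, without 197). For SC_TH against input_TH at 3w it was Dhcr7 (-0.093 to 0.016, without 190). For the SC over input change in TH from 3w to 5m these were Fdps (-0.10 to 0.24, without 187, 188 and 192) and Cyp51 (-0.013 to 0.042, without 189 and 193). For the SC over input change in TH from 5m to 18m these were Hmgcs1 (-0.10 to 0.020, without 192, 193 and 197), Idi1 (-0.22 to 0.058, without 192 and 197), Fdps (-0.17 to 0.13, without 192, 193, 195, 196 and 197) and Dhcr7 (-0.057 to 0.10, without 192, 196 and 197). With the mouse as a replicate block the call of Idi1 in SC_SYN against SC_TH at 5m was gained (0.59, adjusted p = 0.0236 with edgeR), and no other call of a member changed. Fdps, with 1 to 68 reads per library, and input_SYN, the shallowest fraction, limit what could be detected.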
